A study of Mus musculus with 20 samples.

Results

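The 7 fibrillar collagen genes described here, Col1a1, Col1a2, Col3a1, Col5a1, Col5a2, Col5a3 and Col11a1, encode chains of collagen types I, III, V and XI. They were taken by symbol from the 43422 genes measured in each library, with no filter on their values. The choice was made with earlier results of these data known. Type I and type III chains make up most of the collagen fibrils that give the vessel wall its tensile strength. Type V and type XI chains sit inside those fibrils, where they start fibril assembly and limit fibril width. Each chain is made as a procollagen, hydroxylated and folded in the endoplasmic reticulum, secreted, trimmed and then cross-linked outside the cell, and fibroblasts and smooth muscle cells are the main sources in the aorta.

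The libraries were made from abdominal aortas of C57BL/6 mice (C57Bl/6NCrl in the study's methods), 5 in each of 4 groups, 20 in all. The groups were wild-type (WT) mice given saline, WT mice given angiotensin II (Ang II, a hormone that raises blood pressure), Plod1-/- mice given saline and Plod1-/- mice given Ang II. Plod1 encodes lysyl hydroxylase 1 (LH1), the enzyme that hydroxylates lysines of procollagen, and the labels call the mutants lysyl hydroxylase 1 knock out. Ang II was infused at 1000 ng/kg per minute, the tissue was taken on day 14, and the labels give an age of 6 months for all mice, whereas the study's methods give a younger age, in weeks, so the age is uncertain. The deletion was carried in all tissues, so these comparisons cannot tell a loss of LH1 in the aorta from its loss elsewhere. Each library was 1 aorta, and values are FPKM (fragments mapped to a gene, scaled by its length and by the size of the library), which allow levels of different genes to be compared per length.

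Plod1 lay between 22.8 and 29.7 FPKM in the 10 WT libraries and at or below 0.0415 FPKM in the 10 Plod1-/- libraries, as the labels give. Relative depth, scaled to a median of 1, was 0.906 to 1.09. It came from the most frequent ratio of low FPKM values to those of WT saline replicate 1. Summed FPKM of 8 smooth muscle markers was between 14424 and 21067 in the 10 saline libraries, led by Acta2, although Tagln, also a smooth muscle marker, stayed at or below 12.2 FPKM. The study used male mice, and 2 libraries held Xist RNA, at 15.1 FPKM in Plod1-/- saline replicate 5 and 7.93 FPKM in Plod1-/- Ang II replicate 1. That last library also stood apart by its smooth muscle sum of 17218 FPKM, where the other 4 Plod1-/- Ang II libraries had 2365 to 6285. WT Ang II replicate 1 stood apart in the other direction, with a macrophage marker sum of 1209 FPKM, where the other 4 WT Ang II libraries had 187 to 275. Some results are also given without 1 or more of these libraries, and counts of members called with each mouse left out in turn.

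Col1a1 lies on chromosome 11 from 94936224 to 94953042 on the plus strand and Col1a2 on chromosome 6 from 4504814 to 4541544 on the plus strand (build GRCm38, as all positions here). Col3a1 (chromosome 1, 45311538 to 45349706, plus strand) and Col5a2 (chromosome 1, 45374321 to 45503282, minus strand) are close neighbours on opposite strands. Col5a1 is on chromosome 2 from 27886425 to 28039514 on the plus strand, Col5a3 on chromosome 9 from 20770050 to 20815067 on the minus strand and Col11a1 on chromosome 3 from 114030540 to 114220718 on the plus strand. All are protein-coding genes split into many exons, from 51 in the longest transcripts of Col1a1 and Col3a1 to 67 in those of Col5a3 and Col11a1. The library kit did not keep strand, and Col5a1 overlaps 2 genes on the opposite strand, of which Gm13372 reached 6.44 FPKM, so reads of the 2 strands could not be told apart there.

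The 250 bases before the start site are printed for Col3a1, the gene nearest to Col1a1 in its pattern over the mice, and for Col5a3 and Col11a1, which were scarce in saline-treated aortas and rose from that low level under Ang II in Plod1-/- mice. The sequences are RefSeq promoters (GRCm38.p6), 5′ to 3′ on the gene's own strand, with motif matches in capitals. RefSeq promoters were matched for 5 of the 7 members.
Col3a1, chr1:45311288-45311537, plus strand: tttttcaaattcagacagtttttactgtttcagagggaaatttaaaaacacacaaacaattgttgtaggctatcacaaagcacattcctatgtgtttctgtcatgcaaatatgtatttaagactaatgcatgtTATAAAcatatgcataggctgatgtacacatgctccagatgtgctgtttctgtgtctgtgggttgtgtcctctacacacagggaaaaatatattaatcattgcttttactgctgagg
Col5a3, chr9:20815068-20815317, minus strand: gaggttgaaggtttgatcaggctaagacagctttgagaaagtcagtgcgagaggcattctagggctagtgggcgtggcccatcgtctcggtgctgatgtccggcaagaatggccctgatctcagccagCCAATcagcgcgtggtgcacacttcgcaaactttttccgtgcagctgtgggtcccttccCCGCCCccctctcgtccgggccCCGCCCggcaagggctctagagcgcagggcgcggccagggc
Col11a1, chr3:114030290-114030539, plus strand: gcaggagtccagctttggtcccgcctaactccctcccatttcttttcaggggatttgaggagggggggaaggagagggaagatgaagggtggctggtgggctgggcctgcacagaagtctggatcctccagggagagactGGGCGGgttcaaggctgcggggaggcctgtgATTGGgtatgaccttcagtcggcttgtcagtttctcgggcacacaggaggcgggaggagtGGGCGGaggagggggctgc
Searched on both strands were the TATA box (TATAAA), the CCAAT box (CCAAT), the GC box bound by Sp1 (GGGCGG) and the AP-1 motif (TGANTCA), none of which overlaps another in these windows. The Col3a1 window holds TATAAA from -117 to -112, counted back from the start site, and none of the other motifs, and only 35.2% of its bases are G or C. The Col5a3 window holds CCAAT at -122 and GGGCGG on the opposite strand at -63 and -41. The Col11a1 window holds CCAAT on the opposite strand at -79 and GGGCGG at -110 and -19. Among 32851 promoter windows of the same length, 12.4% hold TATAAA, 33.8% CCAAT, 32.7% GGGCGG and 6.75% TGANTCA. The windows of Col5a3 and Col11a1 are richer in G and C, at 62.8% and 62.4%. These matches are letters in a window and were not tested as sites.

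In saline-treated WT aortas the chains of type I and type III collagen led, the type V chains α1 and α2 came next, and Col5a3 and Col11a1 were scarce. Col1a2, the α2 chain of type I collagen, was at 143 ± 28.0 FPKM (SD, n = 5), Col1a1, the α1 chain, at 112 ± 24.7 and Col3a1, the only chain of type III collagen, at 101 ± 29.8. Col1a2 was above Col1a1 in 5 of 5 mice, whereas Col1a1 was above Col3a1 in 4 of 5, so the lower of these steps was within the spread between mice. Col5a2 and Col5a1, which join in the common form of type V collagen, had 22.9 ± 5.88 and 22.7 ± 1.33 FPKM, and neither was above the other in all mice. Col5a3, the chain of a rarer form of type V collagen, had 0.433 ± 0.132 FPKM and Col11a1, the α1 chain of the cartilage collagen type XI, 0.0611 ± 0.0237 FPKM.

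The order of the abundant members was different in Plod1-/- Ang II aortas. Col1a1 came first at 1217 ± 1095 FPKM, Col3a1 followed at 830 ± 635, and Col1a2 was the third at 551 ± 403, and this order held in 5 of 5 mice. Col1a1 was the 9th to the 117th most abundant gene in these 5 libraries and the 350th to the 586th in the 5 WT saline libraries. Together the 7 genes made up 0.778% ± 0.694 of all FPKM in Plod1-/- Ang II mice (range 0.227% to 1.95%), against 0.112% ± 0.0239 in WT saline mice. The share of Col1a2 within the 7 genes was 20.0% ± 1.95 in Plod1-/- Ang II mice and 35.7% ± 0.74 in WT saline mice, and that of Col1a1 was 40.7% ± 5.0 and 27.9% ± 1.38.

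**Figure D1:**
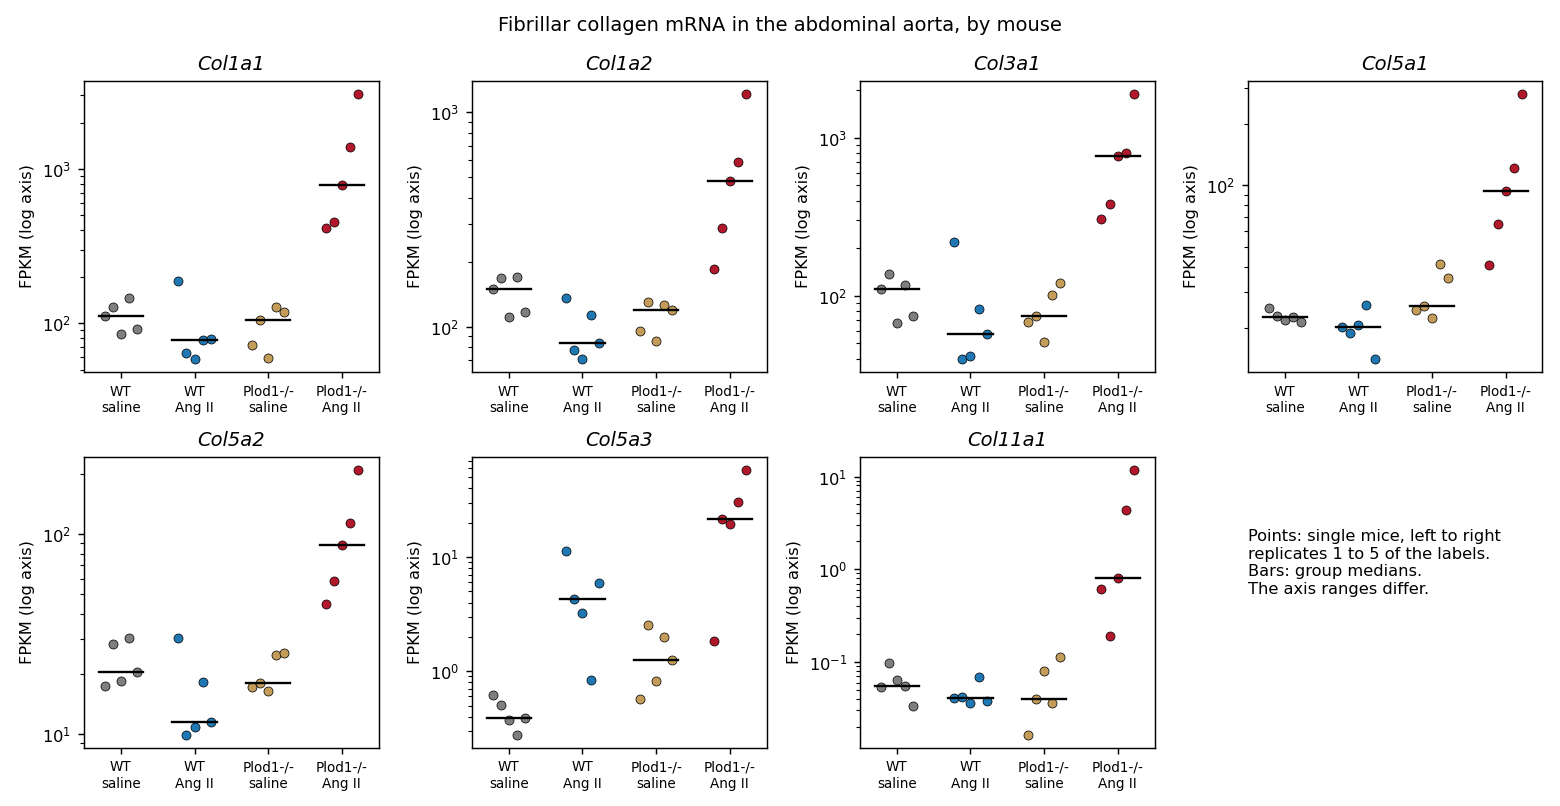
FPKM (log axis) of each fibrillar collagen in each of the 20 mice, with points for mice and bars for group medians. For Col1a1, Col1a2, Col3a1 and Col5a2 every Plod1-/- Ang II mouse lies above every mouse of the other 3 groups, and Col11a1 rises above 0.12 FPKM in the Plod1-/- Ang II mice alone.

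The effect of Ang II in WT mice was asked first. None of the 5 members that passed the filter of at least 1 FPKM in at least 5 of 10 mice was called, where called means a limma adjusted p below 0.05 with a log2 fold change beyond 1 in size. Of all 11994 genes tested, 6.38% were called higher and 2.28% lower. Col1a1 measured 112, 127, 85.1, 145 and 92.2 FPKM in the 5 WT saline mice and 187, 64.0, 58.8, 78.1 and 79.1 in the 5 WT Ang II mice. Replicate 1 of the Ang II group was the highest of all 10 and the other 4 were the lowest 4. The log2 fold change of Col1a1 was -0.38 ± 0.29 (SE; limma adjusted p = 0.302), and -0.66 without WT Ang II replicate 1.

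Col3a1 was also highest in that mouse, with 220 FPKM against 39.8, 41.4, 82.0 and 57.5 in the others of its group and 67.0 to 138 under saline, and here replicate 4 lay within the saline range. Its log2 fold change of -0.47 ± 0.42 (limma adjusted p = 0.378) became -0.87 without that mouse. All 5 log2 fold changes were below 0, with a median of -0.47 beside -0.14 for all genes tested. Col1a2 measured 150, 169, 111, 170 and 117 FPKM under saline and 136, 78.0, 70.7, 113 and 83.8 under Ang II, and its decrease of 0.59 on the log2 scale (SE 0.20) had a limma adjusted p of 0.0383 but stayed inside the fold limit.

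Col5a3 moved the other way in WT mice, from a low level. It measured 0.617, 0.510, 0.374, 0.279 and 0.386 FPKM under saline and 11.4, 4.31, 3.22, 0.839 and 5.96 under Ang II, and every Ang II mouse was above every saline mouse. Only 4 of the 10 mice reached 1 FPKM, so it was compared by itself, and the mean of log2(FPKM + 1) was 1.84 higher under Ang II (two-sided exact permutation test, p = 0.00794, the smallest that 5 mice against 5 allow). This p was not adjusted over genes, and the share of all genes with such a gap was not counted in this comparison. With no filter, limma called Col5a3, beside 1012 genes called in all among 40228. Adipocyte markers were also higher under Ang II, and 5 of the 5 tested were called higher, among them the brown fat gene Ucp1. The summed FPKM of the 6 listed adipocyte genes was 82.0 to 459 in WT saline mice and 758 to 4634 in WT Ang II mice, and replicate 4 had the lowest sum and the lowest Col5a3 of its group. The order did not match in the other WT Ang II mice. Replicate 1 had the highest Col5a3 with a sum of 3200, and replicate 2 had the highest sum with Col5a3 at 4.31 FPKM. None of these markers was at 0 in any mouse. Skeletal muscle markers also reached 139 to 263 FPKM in sum in WT Ang II replicates 2, 3 and 5, and at most 13.5 in the other 17 mice. The part of either tissue in the Col5a3 result was not tested. Col11a1 stayed between 0.0338 and 0.0986 FPKM in the 10 WT mice (exact permutation test, p = 0.214).

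Under Ang II the Plod1-/- aortas held far more fibrillar collagen mRNA than the Plod1-/- saline aortas. All 6 members that could be fitted were called higher, beside 8.38% of the 12333 genes tested (5.51% were called lower), with a median log2 fold change of 2.56 beside 0.05 for all genes. Their groups did not overlap for 4 of the 6, beside 14.2% of genes whose Plod1-/- Ang II mice all lay above all Plod1-/- saline mice. In bulk tissue a change in the number of collagen-making cells and a change in RNA per cell cannot be told apart.

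Col1a1 measured 72.6, 105, 59.9, 128 and 119 FPKM in the Plod1-/- saline mice and 413, 450, 790, 1383 and 3049 in the Plod1-/- Ang II mice. The lowest treated mouse was thus above the highest saline mouse, and the treated mice differed among themselves by up to 7.38 times. The log2 fold change was 3.27 ± 0.51 (limma adjusted p = 0.000630). Col3a1 measured 67.8, 74.1, 50.6, 101 and 120 FPKM under saline and 307, 379, 769, 803 and 1893 under Ang II, again with a gap between the groups, and its log2 fold change was 3.07 ± 0.45 (limma adjusted p = 0.000471). Col1a2 measured 95.1, 130, 86.0, 126 and 119 FPKM under saline and 187, 288, 477, 587 and 1216 under Ang II. Its log2 fold change of 2.02 ± 0.42 (limma adjusted p = 0.00317) was smaller than that of its partner chain, a difference that the chain ratios test directly.

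Col5a1 measured 24.5, 25.7, 22.5, 41.2 and 35.0 FPKM under saline and 40.5, 64.9, 94.0, 122 and 280 under Ang II. The lowest treated mouse fell just under the highest saline mouse, and the log2 fold change was 1.71 ± 0.43 (limma adjusted p = 0.00903). Col5a2 measured 17.2, 18.0, 16.4, 24.7 and 25.4 FPKM under saline and 44.9, 58.5, 88.2, 114 and 210 under Ang II, without overlap (log2 fold change 2.1 ± 0.36, limma adjusted p = 0.00105). Col5a3 measured 0.572, 2.53, 0.817, 1.98 and 1.25 FPKM under saline and 1.84, 21.4, 19.4, 30.6 and 58.1 under Ang II. Plod1-/- Ang II replicate 1 lay within the saline range and the other 4 far above it, and the log2 fold change was 3.03 ± 0.67 (limma adjusted p = 0.00443), or 3.71 without that mouse.

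Col11a1, which reached at most 0.112 FPKM in the 15 mice of the other groups, measured 0.616, 0.192, 0.807, 4.31 and 11.8 FPKM in the Plod1-/- Ang II mice. All 5 were above all Plod1-/- saline mice, although only 2 reached 1 FPKM. The mean of log2(FPKM + 1) was 1.5 higher than under saline (exact permutation test, p = 0.00794, not adjusted over genes). With no filter, limma tested all 7 members in this comparison and called 6, without Col11a1. The chondrocyte-like markers Sox9 and Matn3, genes of cartilage, reached 5.32 and 2.26 FPKM in this group, and at most 1.85 and 0.189 FPKM in the other 15 mice. Both were highest in replicate 5 and next in replicate 4, as were Col11a1 and every other member. Of the 3 cartilage-type markers tested across all genes in the Plod1-/- response, 0 were called higher and 0 lower. Only 1 of the 3 had a log2 fold change above 0, and their median was -0.35. Acan, also on the list, was at 1.40 to 16.5 FPKM in Plod1-/- Ang II and 7.69 to 14.0 in Plod1-/- saline mice. The summed FPKM of the 6 markers on the list was 34.7 to 97.2 in Plod1-/- Ang II, 46.9 to 90.2 in Plod1-/- saline, 67.1 to 116 in WT Ang II and 38.7 to 46.8 in WT saline mice. Comp gave much of this sum, at 21.8 to 106 FPKM over all mice, with Matn1 at or below 0.0891 FPKM in all mice. The part of cartilage-like cells in the Col11a1 result was not tested.

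The Plod1-/- Ang II mice lined up in nearly the same way for each chain. Replicate 5 was the highest for all 7 members, replicate 4 was next for all 7, and replicate 1 was the lowest for 6, the exception being Col11a1, where replicate 2 was lowest. Leaving out replicate 5 lowered the log2 fold change of Col1a1 to 2.84 and that of Col5a1 to 1.33, and leaving out replicate 1 raised them to 3.56 and 2.01. All 6 calls held with each of the 10 mice left out in turn.

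**Figure D2:**
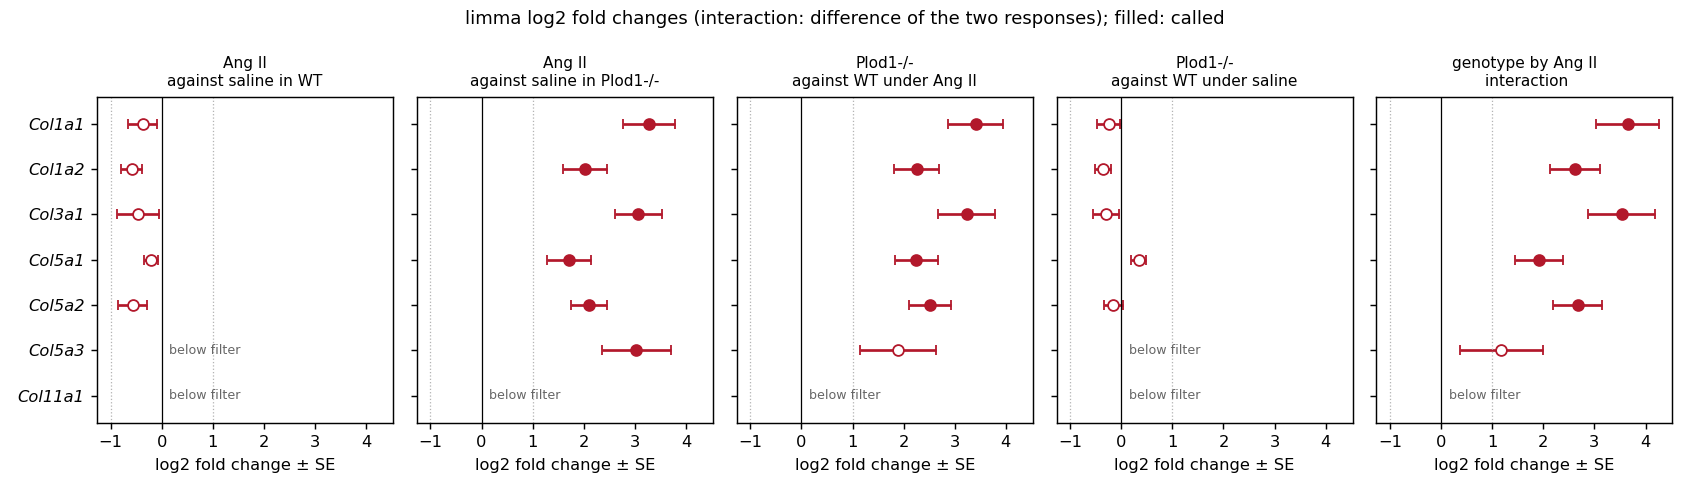
limma log2 fold changes with SE for each member in the 4 comparisons and the interaction, filled where called. The Plod1-/- response and the difference between genotypes under Ang II sit between 1.71 and 3.41, while all points in WT mice and under saline stay inside the limits of -1 and 1.

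Between the genotypes the chains differed under Ang II and not past the threshold under saline. Under Ang II, 5 of 6 members were called higher in Plod1-/- mice, beside 7.45% of 12356 genes (3.67% were called lower), and the groups did not overlap for those 5, beside 10.4% of genes. The log2 differences were 3.41 ± 0.54 for Col1a1 (limma adjusted p = 0.00234), 3.23 ± 0.56 for Col3a1 (0.00355), 2.52 ± 0.42 for Col5a2 (0.00293), 2.25 ± 0.43 for Col1a2 (0.00529) and 2.25 ± 0.42 for Col5a1 (0.00475). The sixth, Col5a3, differed by 1.88 ± 0.74 with a limma adjusted p of 0.0742, and by 2.57 with an adjusted p of 0.00424 without Plod1-/- Ang II replicate 1. Col11a1 was above every WT Ang II mouse in 5 of 5 Plod1-/- Ang II mice (difference in log2(FPKM + 1) 1.51, exact permutation test, p = 0.00794), but limma with no filter did not call it.

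Under saline 0 of 5 members were called by limma, beside 0.358% of 11999 genes called higher and 0.408% lower. Col5a1 was 0.34 ± 0.15 higher (unadjusted p = 0.0467, limma adjusted p = 0.178) and Col1a2 fell by 0.36 ± 0.16 on the log2 scale (unadjusted p = 0.0458, limma adjusted p = 0.176), and these were the 2 members with an unadjusted p below 0.05. Col5a3, compared by itself, was 0.70 higher in log2(FPKM + 1) in Plod1-/- mice (exact permutation test, p = 0.0159), with 1 mouse inside the WT range. For Col11a1 the difference was -0.01 (exact permutation test, p = 0.817).

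The difference between the responses of the genotypes was itself tested as an interaction over all 20 mice. It was called for 5 of 6 members, beside 9.69% of 13263 genes called higher and 6.36% lower. The response in Plod1-/- mice exceeded that in WT mice by 3.65 ± 0.61 on the log2 scale for Col1a1 (limma adjusted p = 0.000303), 3.53 ± 0.65 for Col3a1 (0.000655), 2.67 ± 0.48 for Col5a2 (0.000535), 2.61 ± 0.49 for Col1a2 (0.000680) and 1.91 ± 0.47 for Col5a1 (0.00471). For Col5a3, which was higher under Ang II in both genotypes, the excess was 1.18 ± 0.82 (limma adjusted p = 0.264), and 1.87 with an adjusted p of 0.0126 without Plod1-/- Ang II replicate 1. These comparisons share mice with one another and are not independent. Other genes moved with the interaction too. Immediate early genes such as Fos, which are induced rapidly by many stimuli, were called higher in 7 of 7, with a median of 3.84 on the log2 scale beside 0.12 for all genes. Their summed FPKM was 376 to 1956 in WT saline, 76.8 to 124 in WT Ang II, 126 to 1001 in Plod1-/- saline and 359 to 1197 in Plod1-/- Ang II mice, none was at 0 in any mouse, and 7 of 7 were called lower under Ang II in WT mice. Adipocyte markers (3 of 6) and skeletal muscle markers (2 of 3 tested) were called lower in the interaction. Mitochondrial genes took 14.6% to 29.1% of FPKM in WT Ang II mice and 9.23% to 21.1% in Plod1-/- Ang II mice. With mitochondrial genes left out, 5 of 6 members were called, and the part of the other genes in the interaction was not tested.

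The ratio of chains within a library does not depend on the library's scale. Of the chains, 6 ratios were compared in 4 comparisons by two-sided exact permutation tests on log2 ratios, with adjustment over all 24, so that the smallest possible adjusted p was 0.0317. The ratio of Col1a1 to Col1a2 was 0.782 ± 0.0422 in WT saline mice, 0.933 ± 0.263 in WT Ang II mice, 0.858 ± 0.145 in Plod1-/- saline mice and 2.06 ± 0.425 in Plod1-/- Ang II mice (SD, n = 5 each). The Plod1-/- Ang II mice ran from 1.56 to 2.51, above every mouse of the other groups, whose highest was WT Ang II replicate 1 at 1.38. The log2 ratio was 1.25 higher under Ang II than saline in Plod1-/- mice and 1.16 higher in Plod1-/- than WT mice under Ang II (exact permutation tests, p = 0.00794, adjusted p = 0.0317 for both). Each held with any 1 mouse left out. Without both libraries with Xist RNA the Plod1-/- difference was 1.28 and that between genotypes 1.13, with an adjusted p of 0.0762 in the smaller exact permutation tests.

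Type III and type I mRNA kept closer together. The ratio of Col3a1 to Col1a1 was 0.893 ± 0.132 in WT saline, 0.856 ± 0.242 in WT Ang II, 0.857 ± 0.120 in Plod1-/- saline and 0.752 ± 0.161 in Plod1-/- Ang II mice, the groups overlapped, and no comparison was called (lowest exact permutation p = 0.262). The ratio of Col5a1 to Col1a1, fibril-core chain to main chain, was 0.314 ± 0.0487 in Plod1-/- saline and 0.108 ± 0.0235 in Plod1-/- Ang II mice, without overlap. Its log2 value fell by 1.55 (exact permutation test, p = 0.00794, adjusted p = 0.0317). Under saline this ratio was 0.59 higher on the log2 scale in Plod1-/- than in WT mice, which had 0.210 ± 0.0414 (exact permutation test, adjusted p = 0.0476), and that call was lost when any of 4 WT or any of 5 Plod1-/- saline mice was left out.

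Within type V collagen, Col5a2 to Col5a1 was 0.691 ± 0.0527 in Plod1-/- saline and 0.927 ± 0.127 in Plod1-/- Ang II mice, 0.42 higher on the log2 scale without overlap (exact permutation test, adjusted p = 0.0317, and 0.0544 without any 1 of the saline mice). Col5a3 to Col5a1 was 0.0189 ± 0.00484 in WT saline and 0.281 ± 0.212 in WT Ang II mice, 3.40 higher on the log2 scale in 5 of 5 mice (exact permutation test, adjusted p = 0.0317, and 0.0519 without any 1 of 4 saline mice). Under saline it was 1.22 higher in Plod1-/- than in WT mice (exact permutation test, adjusted p = 0.0476, lost when any of 8 mice was left out). Col11a1 to Col5a1 was 0.0208 ± 0.0171 in Plod1-/- Ang II and 0.00226 ± 0.000407 in WT Ang II mice, 2.67 higher on the log2 scale (exact permutation test, adjusted p = 0.0317). With 1 FPKM added to both chains that difference was -0.74, with Col11a1 below 1 FPKM in all but 2 mice. Differences between the genotypes in these ratio responses were not tested.

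**Figure D3:**
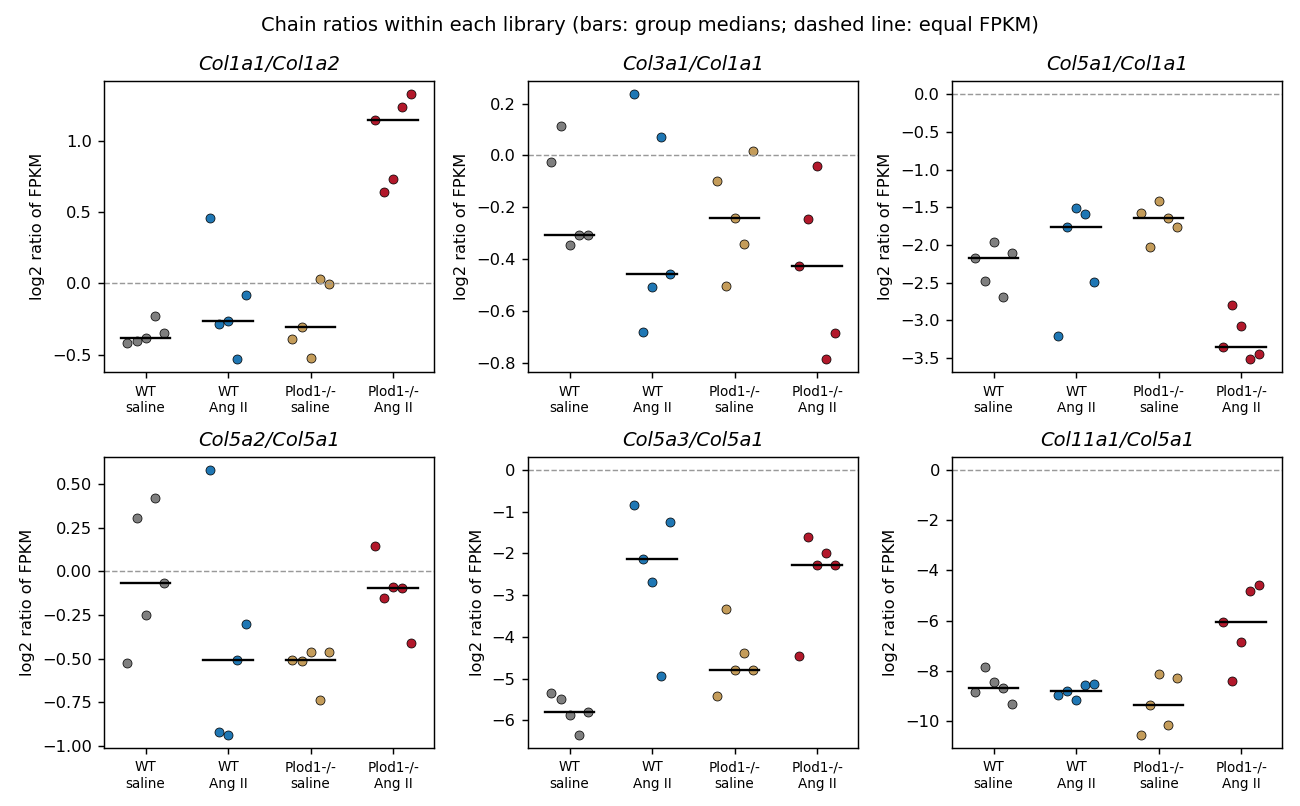
log2 ratio of FPKM between chains in each mouse, with bars for group medians and a dashed line at equal FPKM. The 5 Plod1-/- Ang II mice lie above every other mouse in Col1a1/Col1a2, while the groups overlap in Col3a1/Col1a1.

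The genes whose pattern over the 20 mice was most like Col1a1 were named among 12565 genes, without a test. The measure was the root mean square distance between centred log2(FPKM + 1) values. Col3a1 was the nearest gene of all at 0.28, and the nearest genes outside the 7 were P4ha3, a catalytic chain of prolyl 4-hydroxylase, at 0.41, Ddah1, which breaks down methylated arginines, at 0.47, Lox, the founding lysyl oxidase, at 0.49, Col12a1, a collagen on the fibril surface, at 0.52, and Basp1, a membrane-bound signalling protein, at 0.53. The median gene was at 1.55. Col1a1 itself had a spread of 1.56 around its mean, which is the distance of a gene with equal values in all mice. Distances of the other members were 0.53 for Col5a2, 0.60 for Col1a2, 0.69 for Col5a1 and 1.01 for Col5a3, with 544 genes nearer than Col5a3. P4ha3 was at most 1.68 FPKM in the 15 mice of the other groups and 4.10 to 26.6 FPKM in Plod1-/- Ang II mice, so these 2 sets of mice did not overlap. As P4ha3 was chosen for its likeness to Col1a1 in these same mice, that gap is not separate evidence.

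The enzymes and partners that act on procollagen moved in part with it. Of the 5 lysyl oxidases, which start collagen cross-links, 5 were called higher in Plod1-/- than in WT mice under Ang II, with 2.96 ± 0.43 for Lox (limma adjusted p = 0.00175) and 2.30 ± 0.25 for Loxl2 (0.000647) on the log2 scale. The list median was 1.43 beside 0.12 for all genes. Of 18 tested genes of procollagen folding and hydroxylation, 6 were called higher and Plod1 itself lower. Those 6 were P4ha3 (2.83 ± 0.43), the prolyl isomerase Fkbp10 (1.54 ± 0.20), the prolyl 3-hydroxylase P3h1 (1.29 ± 0.21), P4hb, the common chain of prolyl 4-hydroxylase (1.26 ± 0.20), the collagen chaperone Serpinh1 (1.24 ± 0.33) and Plod2, the lysyl hydroxylase of the collagen ends (1.18 ± 0.35). Plod3, the remaining lysyl hydroxylase, had 0.55 ± 0.15 (limma adjusted p = 0.0203), under the fold limit.

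In the Plod1-/- response to Ang II fewer of these passed. Among lysyl oxidases 3 of 5 were called higher (Lox 2.81 ± 0.34, Loxl2 1.94 ± 0.21 and Loxl4 1.32 ± 0.17). Among folding genes 2 of 17 were called higher (P4ha3 2.91 ± 0.40 and Serpinh1 1.31 ± 0.30) and 2 lower, the prolyl 3-hydroxylase P3h2 (-1.52 ± 0.23) and the endoplasmic reticulum ion channel Tmem38b (-1.04 ± 0.18). P4ha3 was at or below 0.933 FPKM in Plod1-/- saline mice, so it passed the filter here only through the Ang II mice. In WT mice Serpinh1 was called lower under Ang II (-1.02 ± 0.21, limma adjusted p = 0.00505), and 0 of the 4 lysyl oxidases tested were called, with Lox at -0.99 ± 0.35.

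Other collagens were called in smaller numbers. Of 4 tested fibril-associated collagens, Col12a1 and Col16a1 were called higher in Plod1-/- than WT mice under Ang II (2.55 ± 0.48 and 2.24 ± 0.55) and in the Plod1-/- response (2.52 ± 0.51 and 2.01 ± 0.58). Col12a1 was below 1 FPKM in all WT Ang II mice, so between the genotypes it passed the filter only through Plod1-/- mice. Of 3 tested type VI chains, which form a separate microfibril network, Col6a3 (1.5 ± 0.35) and Col6a1 (1.05 ± 0.25) were called higher between the genotypes under Ang II, and 0 of 3 in the Plod1-/- response. Col27a1, the single tested gene among 4 further fibrillar collagens, had a log2 difference of 0.21 ± 0.33 between the genotypes under Ang II.

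Fibril assembly partners went both ways. Of 16 tested, 5 were called higher in Plod1-/- than WT mice under Ang II, namely Thbs1 (4.21 ± 0.34) and Thbs2 (2.41 ± 0.52), which encode thrombospondins, the matricellular genes Postn (1.65 ± 0.42) and Sparc (1.16 ± 0.28), and Aspn (1.38 ± 0.44), a small leucine-rich proteoglycan. Called lower were Prelp (-1.85 ± 0.25) and Omd (-1.30 ± 0.36), also of the leucine-rich family, and Comp (-1.04 ± 0.32), which binds collagen in cartilage and tendon. Decorin (Dcn), the abundant proteoglycan of collagen fibrils, had -0.65 ± 0.25 (limma adjusted p = 0.0681). In the Plod1-/- response 3 were called higher and 5 lower, with a list median of -0.38.

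Among genes for secretion, trimming and breakdown, those called higher between the genotypes under Ang II were Creb3l1, a transcription factor of procollagen secretion (1.57 ± 0.18, 1 of 10 tested), Bmp1, which cleaves the C-terminal propeptide (1.05 ± 0.30, 1 of 5), and the collagen-degrading Ctsk (1.99 ± 0.31) and Mmp14 (1.77 ± 0.39, 2 of 4). Of 7 profibrotic signal genes, the cytokine Il11 (1.51 ± 0.25) and the growth factor Tgfb1 (1.02 ± 0.23) were called higher. Of 7 collagen receptors, 0 were called in this comparison and Itga10 alone, an integrin chain, in the Plod1-/- response (-1.36 ± 0.20). Larp6, which binds type I collagen mRNA, was the single tested gene of 4 regulators of collagen mRNA and had -0.34 ± 0.20 between the genotypes.

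**Figure D4:**
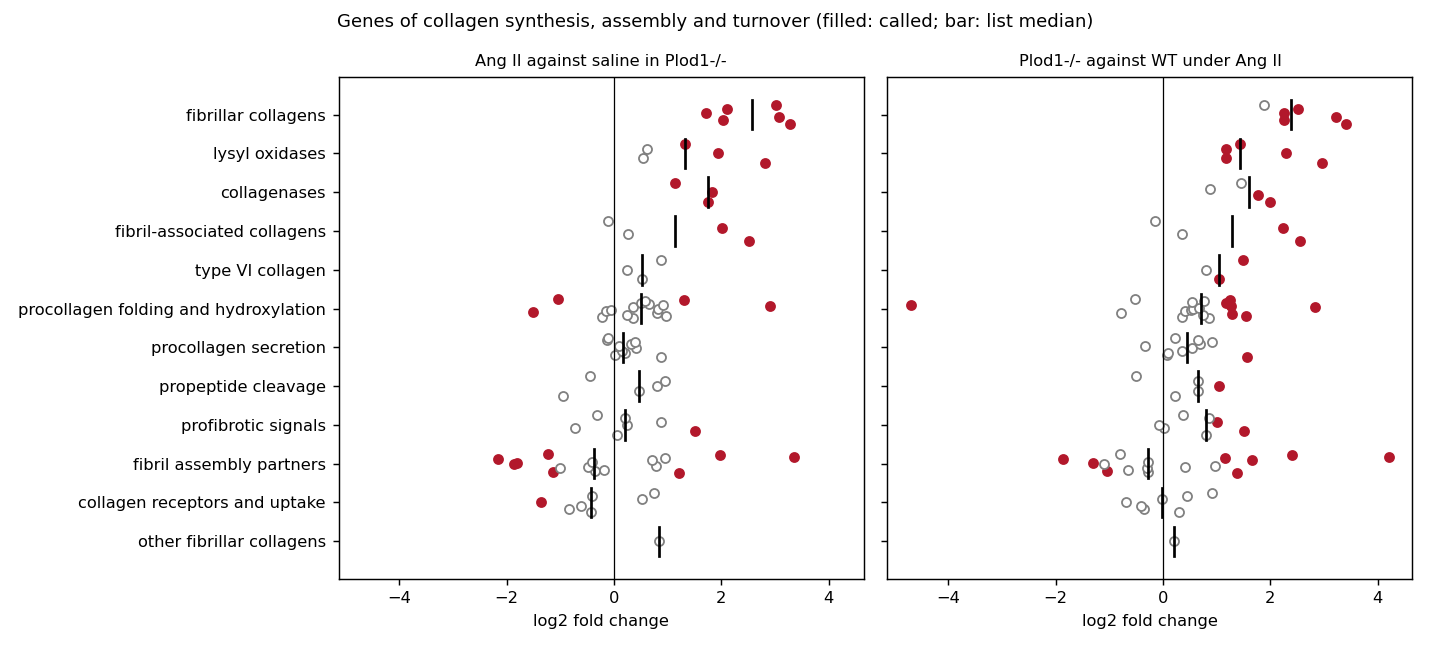
log2 fold changes of genes in 12 lists of collagen synthesis, assembly and turnover, for the Plod1-/- response to Ang II and for Plod1-/- against WT under Ang II, filled where called and with a bar at each list's median. The fibrillar collagens have the rightmost median in both panels, and the point at -4.69 is Plod1.

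Markers of the cells an aorta can hold were set beside the collagen mRNA. Of 8 general fibroblast markers tested, 1 was called higher (Cd248, 1.05 ± 0.28) and 1 lower (Clec3b, -1.39 ± 0.33) in the Plod1-/- response, and 0 higher and 3 lower between the genotypes under Ang II. Their summed FPKM was 745 to 1270 in WT saline, 604 to 919 in WT Ang II, 357 to 797 in Plod1-/- saline and 475 to 1014 in Plod1-/- Ang II mice, and none was at 0 in any mouse. Of 6 activated fibroblast markers, 4 were called higher between the genotypes under Ang II, led by Tnc (2.29 ± 0.44) and Runx1 (1.87 ± 0.30). Their sum was 151 to 218 FPKM in WT saline and 59.9 to 128 in WT Ang II mice. In Plod1-/- mice it was 119 to 153 FPKM under saline and 93.5 to 499 under Ang II. Of 3 tested in the WT response, 1 was called lower and 0 higher, with a median log2 fold change of -0.63. Postn belongs to this list and to the assembly partners.

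Macrophage markers were called higher in both comparisons, 6 of 6, with sums of 50.2 to 197 FPKM in Plod1-/- saline, 187 to 1209 in WT Ang II and 585 to 3582 in Plod1-/- Ang II mice. Neutrophil markers were called higher in 4 of 4 tested, and hemoglobin and other erythroid genes in 5 of 5. Neutrophil sums were 1.29 to 2.83 FPKM, 6.19 to 165 and 139 to 706 in the same order of groups. Ly6g and Cxcr2 were at 0 in some mice outside the Plod1-/- Ang II group. Csf3r and Cxcr2 stayed at or below 0.623 and 0.0920 FPKM in Plod1-/- saline mice. In the Plod1-/- response they passed the filter only through the Ang II mice. Ly6g, which was not tested, was at 0.143 to 0.280 FPKM in Plod1-/- Ang II mice and 0.707 in WT saline replicate 5. Smooth muscle markers were called lower in 6 of 8 in the Plod1-/- response and in 4 of 8 in the WT response. Between the genotypes under Ang II, 2 of 8 were called lower. Among the WT Ang II mice, replicate 1 had the highest Col1a1, Col1a2, Col3a1, Col5a2 and Col5a3 together with the highest macrophage and neutrophil sums and the lowest smooth muscle sum, 5614 FPKM. Among the Plod1-/- Ang II mice, replicate 1 had the lowest collagen sum, 994 FPKM, together with the lowest macrophage and neutrophil sums, 585 and 139, and the highest smooth muscle sum. Replicate 5 had the highest collagen sum, 6717 FPKM, and the lowest smooth muscle sum, 2365, with a macrophage sum of 1682, while the highest macrophage sum was in replicate 4. Lyz2 gave most of that macrophage sum, at 3102 FPKM. Lyz2 and Itgam were highest in replicate 4, Cd68, Adgre1 and Csf1r in replicate 3 and Mrc1 in replicate 5. Activated fibroblast sums did not follow the collagen sums in every mouse. In Plod1-/- Ang II mice they were 367 FPKM in replicate 1, 93.5 to 325 in replicates 2 to 4 and 499 in replicate 5. In WT Ang II mice they were 71.4 FPKM in replicate 1 and 128 in replicate 4. The part of these cells in the collagen results was not tested.

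**Figure D5:**
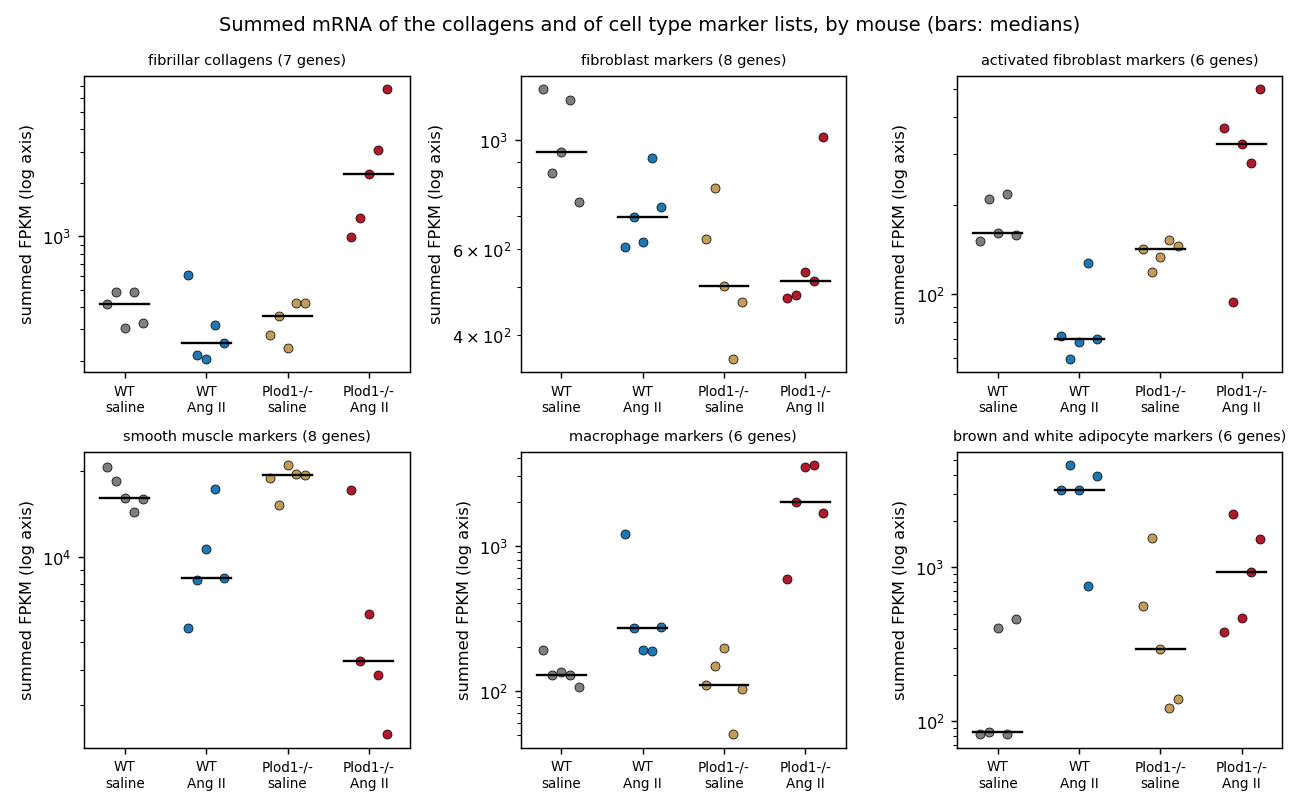
Summed FPKM (log axis) of the 7 fibrillar collagens and of 5 marker lists in each mouse, with bars for medians. The 4 highest macrophage sums are Plod1-/- Ang II mice, fibroblast sums overlap between all 4 groups, and WT Ang II replicate 1 stands above its group for collagens and macrophage markers.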

How the data were processed

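RNA from the abdominal aortas of 20 mice was sequenced without strand information. The deposited tables give FPKM for each Ensembl gene and mouse. The authors aligned reads with HISAT2, quantified them with stringtie and cuffquant and normalized them with cuffnorm. The submitters' processing notes name mm10, HISAT2 2.1.0, Bowtie2 2.2.3 and HTSeq 0.6.0, and the methods another HISAT2 version. Depth in reads is unknown, so no counting interval is given.

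FPKM values were tested as log2(FPKM + 1), which understates changes of low genes, with limma 3.58.1 (R 4.3.3, variance trend) on the 10 mice of a comparison, or all 20 for the interaction, with Benjamini-Hochberg adjustment over all genes tested. Members under the filter and chain ratios had exact permutation tests (252 splits). The authors' edgeR test works on counts and was not repeated. Symbols and positions came from GENCODE M21 for 43226 genes. The fit was tested on simulated data. Replicate numbers come from the labels, mice being separate animals. Named genes were all members, called list genes and, by likeness to Col1a1, 5 others. For 1 gene of the lists the result is not reported here, and its list was counted without it. Members and lists were chosen with earlier results of these data known. Alternatives were a pseudocount of 0.1, no filter, replicate block, quantile scaling, no mitochondrial genes, weights per mouse, no trend, all groups in 1 fit, and mice left out.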

Additional observations from a re-analysis of the deposited data

Results flagged for a closer look

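In 4 of 52 groups of 5 mice, 1 mouse lay far from the others by Dixon's criterion (gap over range above 0.71), where chance gives about 1 in 20. In WT Ang II mice these were replicate 1 for Col1a1 (187 FPKM) and Col3a1 (220 FPKM), which is the mouse with the highest macrophage marker sum of its group, and replicate 4 for Col11a1 (0.0684 FPKM), a very low level. In Plod1-/- saline mice, replicate 4 had the lowest Col5a2 to Col5a1 ratio (0.60).

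The response to Ang II differed between Plod1-/- and WT mice, by the interaction test, for Col1a1 (3.65 on the log2 scale), Col3a1 (3.53), Col5a2 (2.67), Col1a2 (2.61) and Col5a1 (1.91). Macrophage, neutrophil, erythroid and immediate early genes were also called higher in this test, and some adipocyte and skeletal muscle markers lower, and their part in the differences was not tested.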

How the results depend on the processing

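All calls of members held under every alternative run, and no member changed direction, but the count in WT mice rose from 0 to 1 with no filter (Col5a3) and with the adjusted p alone (Col1a2). Col11a1, which limma tested only with no filter, was not called there in any comparison. With mice left out in turn the counts of members called ran from 0 to 0 in WT mice, 6 to 6 in Plod1-/- mice, 5 to 6 between the genotypes under Ang II, 0 to 0 under saline and 5 to 6 for the interaction. Replicate numbers do not pair the mice (correlations of deviations -0.33 to 0.42), and with the replicate block the members called stayed at 0, 6, 5, 0 and 5 in the same order. Chain ratio calls were less stable. With the replicate block they were 0 in all 4 comparisons, where the exact test cannot pass after adjustment. Without both libraries with Xist RNA they were 0 in the 3 comparisons that include one. The Plod1-/- response then had fewer mice on both sides, so its smallest possible exact p was larger. The log2 differences of Col1a1/Col1a2 were still 1.28 there and 1.13 between the genotypes under Ang II. At an unadjusted p below 0.05, 5 ratios passed in the Plod1-/- response. With 0.1 or with 1 FPKM added to both chains, 1 passed between the genotypes under Ang II and 0 under saline. With mice left out in turn, 0 to 1 ratios were called in WT mice, 2 to 4 in Plod1-/- mice, 2 to 4 between the genotypes under Ang II (4 without WT Ang II replicate 1) and 0 to 3 under saline.

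Directions turned for 12 ratio values, none of them called under the alternative. For Col11a1/Col5a1 they were 0.069 with 0.1 FPKM and 0.18 with 1 FPKM added in WT mice, and -0.21 in the Plod1-/- response and -0.74 between the genotypes under Ang II with 1 FPKM added. With mice left out in turn Col11a1/Col5a1 ran from -0.36 to 0.0073 in WT mice (the highest without WT saline replicate 2), and Col3a1/Col1a1 from -0.22 to 0.0094 in WT mice and from -0.12 to 0.012 under saline. Col5a3/Col5a1 between the genotypes under Ang II ran from -0.80 to 0.33 and was 0.33 without both Xist libraries, 0.23 without WT Ang II replicate 1 and 0.13 without its replicate 5. The cause of these changes was not tested. Col5a3 between the genotypes under Ang II passed at 2.35 with weights per mouse, 1.88 with all groups in 1 fit and 2.57 without both Xist libraries. Depth is unknown, so no detection limit is given for low members such as Col11a1.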
